A study of Mus musculus with 29 samples.

Results

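Cultured mouse nephron progenitor cells that had lost heparin from their medium were compared with cells that had lost the kinase inhibitor Y27632, each after 4 or 8 days. The comparison rests on 4 of the 29 libraries of the study, chosen by their labels: 2 heparin withdrawal libraries (day 4 and day 8) and 2 Y27632 withdrawal libraries (day 4 and day 8), paired by day. All 4 came from cells labelled E13.5, of a C57BL/6 and 129 hybrid background, and all carried the Six2-GCE allele (JAX stock), which puts a green fluorescent protein and inducible Cre fusion under the control of Six2. The cells were kept as three-dimensional aggregates in the medium named NPSR and lacked 1 component each. The labels do not give their passage, do not name the line and do not say whether the day 4 and day 8 libraries came from separate cultures. The p-values below therefore measure no spread between replicate cultures. They set the size of a difference against its change between the 2 days, and against a spread borrowed from the other genes. The 9 withdrawal libraries include none from complete medium, so a gene that was higher in heparin withdrawal cannot be told apart from one that was lower in Y27632 withdrawal.

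Nephron progenitors form the cap mesenchyme of the embryonic kidney and are held there by fibroblast growth factor (FGF), Wnt and bone morphogenetic protein (BMP) signals. Heparin, a sulfated sugar chain, stands in for the heparan sulfate of the cell surface, which FGF ligands need in order to bind their receptors well. Y27632 blocks the kinases ROCK1 and ROCK2, which drive actomyosin contraction, and it is widely used to keep dissociated progenitor and stem cells alive.

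Expression was deposited as RPKM, a read number divided by transcript length in kilobases and by the mapped reads of the library. The depth estimated from the spacing of low values was 6.56 M reads in heparin withdrawal day 4, the shallowest of the 9 withdrawal libraries, and 13.9 to 16.9 M reads in the other 8. An RPKM of 1 in a 2 kb transcript then stood for about 13.1 reads in that library and 27.9 to 33.9 reads in the others. All differences below are of log2(RPKM + 1), heparin withdrawal minus Y27632 withdrawal, so that a positive value is higher without heparin, and they understate the difference of genes with low values. The 2 conditions were alike as whole transcriptomes: over 11364 genes, Pearson's r across genes was 0.990 between the conditions on day 4 and 0.993 on day 8, against 0.985 between the days within either condition. These values describe the libraries across genes, which are no replicates, and have no test.

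The question put to these libraries was which genes separate the loss of heparin from the loss of the ROCK inhibitor on both days. With limma and Benjamini-Hochberg adjustment, 15 of 11490 tested genes passed an adjusted p of 0.05, 7 of them higher (0.0609% of the genes tested) and 8 lower (0.0696%) in heparin withdrawal. Of the 15, 11 were genes of short RNAs, described at the end. The other 4 were longer genes, among them Syt13, which was higher, and Snhg9 and Tinagl1, which were lower. In a fit without the 126 tested short RNA genes, an alternative chosen after seeing the data, 294 of 11364 genes passed (2.59%), 140 higher (1.23%) and 154 lower (1.36%). These 294 had a median absolute difference of 0.62, and 36 had one of at least 1. These calls did not hold under other models: with limma, none passed when day was not a term (548 had an unadjusted p under 0.05), and none passed in a fit on all 9 withdrawal libraries that kept day as a term (604). Leaving out 1 of the 4 libraries leaves no residual degree of freedom with day in the model, so the part of a single library in the 294 calls was not tested. In simulated data the share of false calls was above the nominal level, so the adjusted p-values of both fits may be lenient. The simulated spread was taken from the fits themselves, so the error rate in the real libraries is not known. Below, "called" means called in the fit without short RNA genes, and the adjusted p of the fit on all genes is given for the genes named by size. A lack of overlap between the conditions is given below as a description and adds no support for any gene. For genes named by size it was part of the selection rule. For the other genes it has no background, since the share of all genes without overlap was not counted.

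By size alone, 14 genes (0.122%) had a difference of at least 1 on both days and 19 (0.165%) had one of at most -1. Among longer genes these were 4 and 12. Longer genes with a difference of at least 1 in either direction were more numerous on day 4 (93 genes, 70 of them lower in heparin withdrawal) than on day 8 (43 genes, 19 lower), and the part of the shallow heparin withdrawal day 4 library in this was not tested. Across the 11364 genes the day 4 and day 8 differences had r = 0.495, as a description. A total of 4118 genes lay above 0 on both days (36.2%) and 3229 lay below 0 on both days (28.4%). The signs of list members below are read against these shares. Calls in the lists are read against the 1.23% of genes called higher and the 1.36% called lower. The lists were chosen with earlier results of these data known. The median over the 11364 genes was 0.02.

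**Figure D1:**
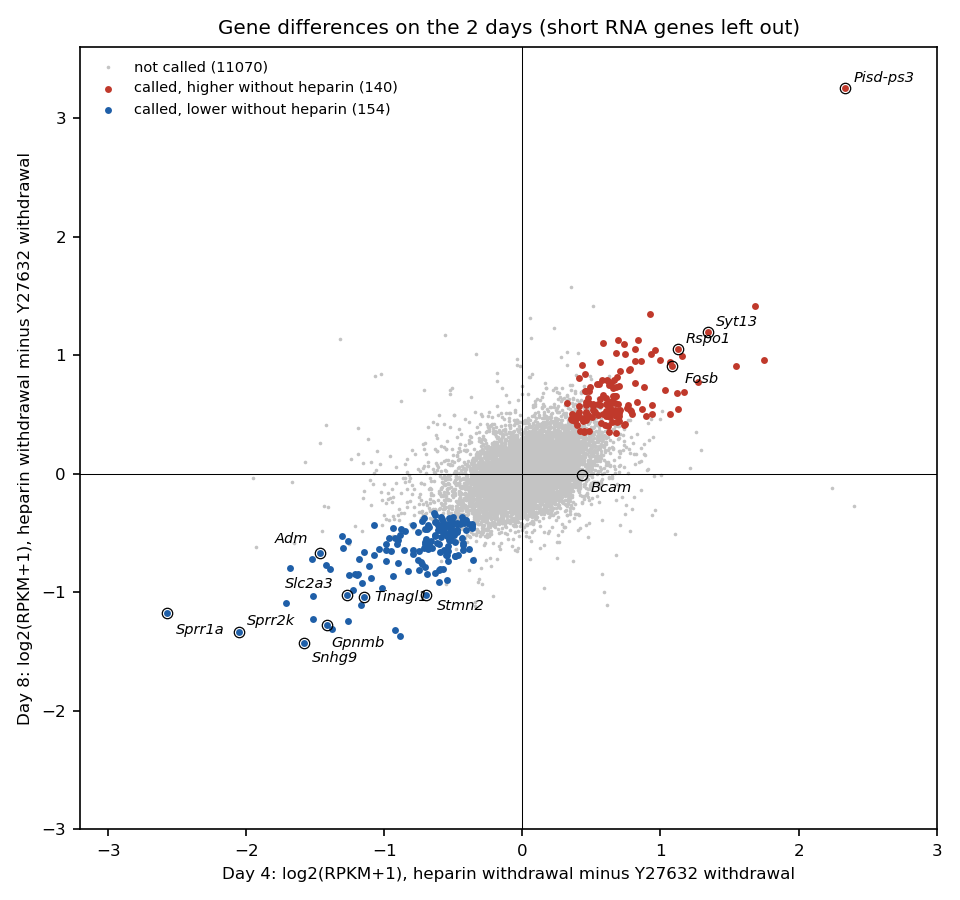
Difference of log2(RPKM + 1), heparin withdrawal minus Y27632 withdrawal, on day 4 (horizontal axis) and day 8 (vertical axis) for 11364 genes, each point 1 gene; red and blue points are the 140 and 154 genes called higher and lower without heparin in the limma fit without short RNA genes, and circles mark genes named in the text. Sprr1a lies at -2.57 on day 4 and -1.18 on day 8, and Bcam at 0.43 and -0.01.

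Among the longer genes selected by size, the lowest in heparin withdrawal relative to Y27632 withdrawal encode small proline-rich proteins, cross-linked precursors of the cornified envelope of squamous epithelia. Sprr1a (mm9 chr3:92287877-92289816, minus strand) had an RPKM of 36.8 on day 4 and 30.0 on day 8 of heparin withdrawal, and 223.9 and 69.2 in Y27632 withdrawal. The 2 heparin withdrawal libraries lay close together and below both others, while the Y27632 withdrawal libraries were far apart. The RPKM was 6.08-fold higher in Y27632 withdrawal on day 4 and 2.31-fold higher on day 8, and the mean difference of -1.88 ± 0.27 (SE) was called (adjusted p = 0.0213) but did not pass in the fit on all genes (0.144). Sprr2k, of the same gene cluster (mm9 chr3:92236504-92237847, plus strand), had 32.8 and 30.1 RPKM in heparin withdrawal and 139.2 and 77.3 in Y27632 withdrawal. Its groups did not overlap either, and its difference was -1.69 ± 0.15 (adjusted p = 0.00607, and 0.106 in the fit on all genes). The Sprr2 genes are a family of similar copies, so how the reads were divided among them is uncertain. Of the same family, Sprr2h (-1.67 on day 4 but -0.07 on day 8) and Sprr2b (mean -0.40) did not pass. In bulk libraries such as these, fewer cells of a type and less RNA per cell cannot be told apart.

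Levels in the other libraries show where the Sprr1a difference sits. Withdrawal of BMP7 left 0.366 RPKM on day 4 and 0.486 on day 8, withdrawal of the GSK3 inhibitor CHIR left 18.9 on day 4 and Sprr1a listed at 0 on day 8, and withdrawal of LIF left 2.73 on day 8. The E13.5 line in full medium, labelled as poly(A) RNA rather than total RNA, had 437.3 at passage 20 and 379.9 at passage 80. Both conditions compared here thus lay between the other withdrawals and the line, with Y27632 withdrawal on day 4 nearest to the line.

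Stmn2 and Bcam were singled out with Sprr1a as markers of this comparison, and they differ from it and from each other. Stmn2, which encodes stathmin 2, a microtubule-destabilising protein best known from growing neurites, had 4.39 and 4.43 RPKM on days 4 and 8 of heparin withdrawal and 7.74 and 10.1 in Y27632 withdrawal. The groups did not overlap, and the difference of -0.86 ± 0.12 was called (adjusted p = 0.0209, and 0.126 in the fit on all genes). Bcam, which encodes a cell-surface receptor for laminin, had 18.1 and 25.8 RPKM in heparin withdrawal and 13.1 and 26.0 in Y27632 withdrawal. Here the groups overlapped, the larger gap was between the days, and the difference of 0.21 ± 0.12 did not pass (adjusted p = 0.377). Both genes were lower in the 5 libraries of BMP7, CHIR and LIF withdrawal: Stmn2 was listed at 0 or reached at most 0.724 RPKM there, and Bcam had at most 3.26. Of 19 neuronal cytoskeleton and neurite genes tested, Stmn2 was the only one called, and the median of the list was 0.02.

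**Figure D2:**
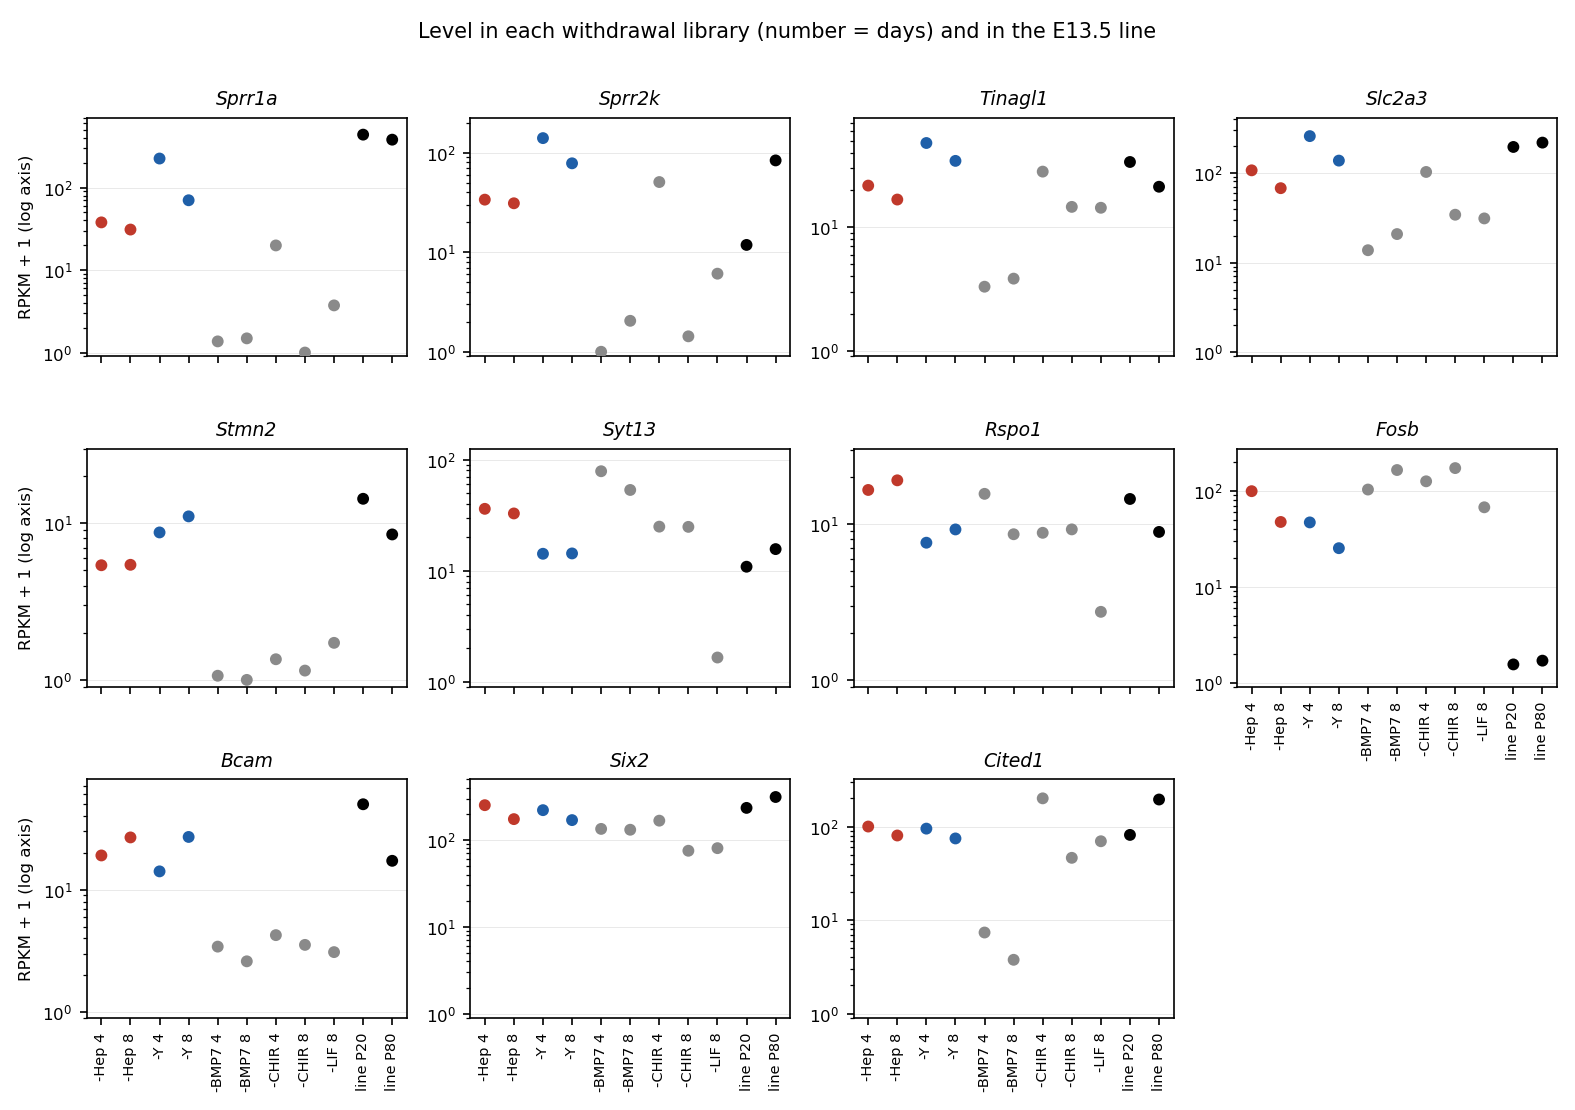
RPKM + 1 on a log axis for 11 genes in each of the 9 withdrawal libraries and the 2 libraries of the E13.5 line, each point 1 library, with red for heparin withdrawal (-Hep), blue for Y27632 withdrawal (-Y), grey for BMP7, CHIR and LIF withdrawal and black for the line at passages 20 and 80; the number after each withdrawal is its day. Sprr1a and Stmn2 are lower in the heparin than in the Y27632 withdrawal libraries and lower still in most of the grey ones, while Six2 stays between 168.5 and 250.7 RPKM in the 4 compared libraries.

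Several genes of the basement membrane and of laminin-binding integrins were lower without heparin. Tinagl1 (mm9 chr4:129841698-129852366, minus strand), which encodes a secreted basement membrane protein, had 20.7 and 15.7 RPKM in heparin withdrawal and 47.1 and 33.4 in Y27632 withdrawal. The groups did not overlap, and it passed in both fits, with a difference of -1.09 ± 0.09 (adjusted p = 0.00508 and 0.0481). Itga3, which encodes the alpha chain of a laminin receptor, was low in heparin withdrawal (1.29 and 1.36 RPKM) and higher in Y27632 withdrawal (5.55 and 3.84), a called difference of -1.28 ± 0.15 (adjusted p = 0.0148, 0.120 in the fit on all genes). Itga6, the alpha chain of a further laminin receptor, was also called (-0.74 ± 0.13).

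Of 25 laminin and basement membrane genes tested, 4 were called lower, against 1.36% of all genes, and none higher. Of the list, 15 lay below 0 on both days against 5 above. The called members included, beside Tinagl1, Lamc1 (-0.65), a laminin chain common to most basement membranes, and Col18a1 (-0.60), a basement membrane collagen that carries heparan sulfate. The list's median was -0.16. Of 9 integrins, 2 were called lower and 6 lay below 0 on both days. Among 10 epithelial junction and keratin genes, Krt19 (-1.06) and Cdh3 (-0.62), the genes of keratin 19 and P-cadherin, were called lower. Fibrillar and interstitial matrix genes were mixed: of 25 tested, Lox, which encodes a collagen cross-linking enzyme, was called higher (0.56), and Bgn (-0.48), Postn (-0.75) and Tnc (-0.48) were called lower. Across the 21 genes of the cornified envelope, S100 and annexin list, Sprr1a and Anxa1 (-0.51) were called lower, and 16 lay below 0 on both days against 3 above.

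Glucose transporter genes and some other genes that respond to low oxygen formed the largest group of calls among the lists on the lower side. Slc2a3 (mm9 chr6:122677827-122751658, minus strand), the gene of the glucose transporter GLUT3, had 105.6 and 66.4 RPKM in heparin withdrawal and 255.5 and 135.8 in Y27632 withdrawal. Its groups did not overlap, and the difference of -1.14 ± 0.09 was called (adjusted p = 0.00508, and 0.0573 in the fit on all genes). Slc2a1, the gene of the glucose transporter GLUT1, had 136.1 and 56.6 RPKM against 312.7 and 103.4. Its libraries overlapped across days, since heparin withdrawal on day 4 exceeded Y27632 withdrawal on day 8, and only within a day was heparin withdrawal the lower one (-1.19 and -0.86; mean -1.03 ± 0.10, adjusted p = 0.00651). Adm, which encodes the peptide adrenomedullin, had much lower levels on day 8 than on day 4 in both conditions, going from 21.7 to 3.17 RPKM without heparin and from 61.6 to 5.66 without Y27632. Its difference was larger on day 4 (-1.46) than on day 8 (-0.67), with a called mean of -1.07 ± 0.17.

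Of 29 glycolysis and hypoxia genes tested, 7 were called lower, against 1.36% of all genes, and none higher. Of the list, 17 lay below 0 on both days against 2 above. The further called members were Ero1l (-0.91), an oxidase of the endoplasmic reticulum, Ankrd37 (-0.74), Egln3 (-0.55), an oxygen-sensing prolyl hydroxylase, and Slc16a3 (-0.41), a lactate exporter. Among the enzymes of glycolysis itself, Aldoa (-0.24), Pgk1 (-0.22), Ldha (-0.10), Tpi1 (0.03) and Gapdh (0.08) did not pass. Other oxygen response genes of the list did not pass either, among them Ndrg1 (-0.44), Vegfa (-0.02), P4ha1 (0.06), Bnip3 (0.07) and Pdk1 (0.21). Car9 went from -0.62 on day 4 to 0.30 on day 8 and did not pass. The list's median was -0.23 on day 4 and -0.18 on day 8. In the other withdrawals Slc2a3 was lower again, at 12.7 and 19.8 RPKM without BMP7 and 30.0 without LIF, but 101.2 without CHIR on day 4 and 33.1 on day 8, and the E13.5 line had 193.1 at passage 20 and 216.0 at passage 80.

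**Figure D3:**
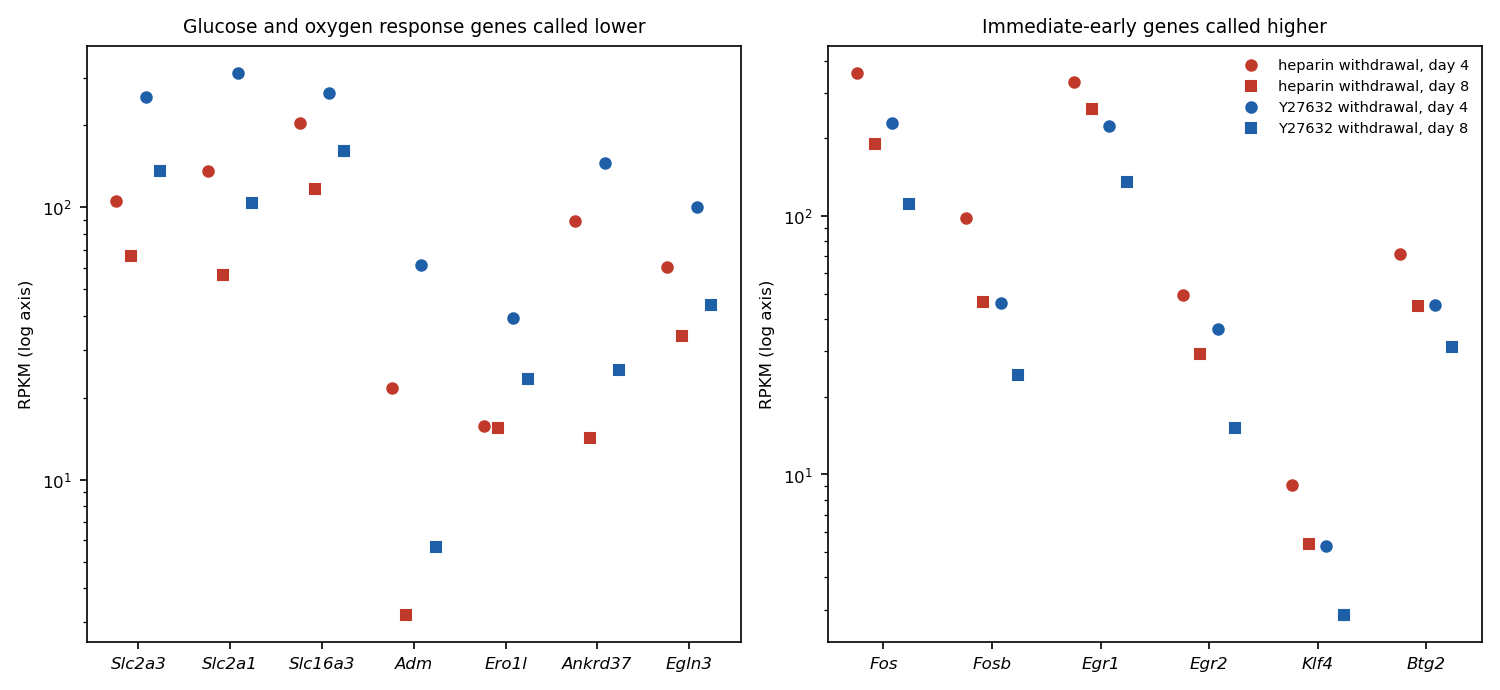
RPKM on a log axis in the 4 compared libraries for the 7 glucose and oxygen response genes called lower (left) and the 6 immediate-early genes called higher (right) without heparin; circles are day 4 and squares day 8, red is heparin withdrawal and blue is Y27632 withdrawal. Within each day the red symbol is the lower one for every gene on the left, as for Slc2a1 with 136.1 against 312.7 on day 4, and the higher one for every gene on the right, as for Fos with 359.3 against 230.2.

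Of the amino acid response genes, 3 were called lower as well. Asns, which encodes asparagine synthetase, had 20.1 and 24.8 RPKM without heparin and 33.9 and 42.8 without Y27632, a called difference of -0.74 ± 0.08 (adjusted p = 0.0123). Chac1 (-1.02), the gene of a glutathione-degrading enzyme, and Mthfd2 (-0.60), the gene of a mitochondrial folate enzyme, were the other called members of the 23 unfolded protein and amino acid response genes. All 3 are known targets of the transcription factor ATF4, whose own gene did not pass (-0.27). The chaperone genes of the unfolded protein response on the list did not pass, among them Hspa5 (-0.04) and Hsp90b1 (-0.07). Further members that did not pass ran both ways, among them Trib3 (-0.69), Slc7a5 (-0.22), Slc3a2 (-0.14), Phgdh (-0.12), Atf5 (-0.01), Ppp1r15a (0.13) and Vldlr (0.19). Of the list, 17 genes lay below 0 on both days and 2 above. Of 21 cholesterol synthesis genes, 17 also lay below 0 on both days with a median of -0.28, but only Dhcr7 was called (-0.40 ± 0.08, adjusted p = 0.0454). Among 20 p53 target genes, Cdkn1a (-0.58), Zmat3 (-0.62) and Aen (-0.53) were called lower and Btg2 (0.58) higher.

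On the higher side stood genes of the immediate-early response, which is switched on within minutes of a growth factor or stress signal. Fosb had 98.7 and 46.6 RPKM in heparin withdrawal and 46.1 and 24.3 in Y27632 withdrawal. The groups did not overlap, if only narrowly, and the difference of 1.00 ± 0.09 was called (adjusted p = 0.00546, and 0.0583 in the fit on all genes). Fos had 359.3 and 190.5 RPKM against 230.2 and 111.5, so that heparin withdrawal on day 8 lay below Y27632 withdrawal on day 4, and its difference was called (0.70 ± 0.08, adjusted p = 0.0109). Egr1 had 331.4 and 260.9 RPKM against 224.1 and 135.0, with no overlap and a called difference of 0.75 ± 0.10 (adjusted p = 0.0206). Of the 24 immediate-early and AP-1 genes tested, 6 were called higher, against 1.23% of all genes, and none lower. The other called members were Egr2 (0.67), Klf4 (0.71) and Btg2 (0.58). Members went both ways: 14 members lay above 0 on both days and 5 below, and the Fos relative Fosl1 (-0.46), Maff (-0.49) and Atf3 (-0.26) did not pass.

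Levels of these genes set all withdrawal libraries apart from the line. Fosb had 66.7 to 172.6 RPKM in the BMP7, CHIR and LIF withdrawals and 0.551 and 0.697 in the E13.5 line at passages 20 and 80. Fos had 259.6 to 479.1 in those withdrawals and 6.62 and 29.5 in the line. The Y27632 withdrawal day 8 library had the lowest level of both genes among the 9 withdrawal libraries. The line also differs from the withdrawals in its labelled kind of RNA, and these differences cannot be told apart.

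Several progenitor genes were higher in heparin withdrawal, while the core markers Six2 and Cited1 did not pass the test. Rspo1 (mm9 chr4:124663674-124686343, plus strand), which encodes R-spondin 1, a secreted enhancer of Wnt signalling, had 15.6 and 18.1 RPKM in heparin withdrawal and 6.60 and 8.25 in Y27632 withdrawal. The groups did not overlap, and the difference of 1.09 ± 0.09 was called (adjusted p = 0.00546, and 0.0573 in the fit on all genes). Bmper, which encodes a secreted regulator of BMPs, had 11.8 and 12.9 RPKM against 6.15 and 5.39, again without overlap and called (0.98 ± 0.11, adjusted p = 0.0123). Of 29 cap mesenchyme genes tested, 16 lay above 0 on both days against 6 below. In this list 7 were called higher, against 1.23% of all genes, and 1 lower. Beside Rspo1 and Bmper the higher ones were Capn6 (0.84), the adhesion gene Ncam1 (0.54), the homeobox gene Hoxd10 (0.41), and Pax2 (0.79) and Wt1 (0.41), transcription factor genes required for kidney formation. Pax2 was low, with at most 1.97 RPKM. The lower one was Crym (-0.48), which encodes a thyroid hormone binding protein.

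Six2, the transcription factor that keeps progenitors undifferentiated, had 250.7 and 172.9 RPKM on days 4 and 8 of heparin withdrawal and 219.6 and 168.5 in Y27632 withdrawal. The libraries overlapped, and the difference of 0.11 ± 0.08 did not pass (adjusted p = 0.471). Cited1, a marker of the least differentiated progenitors, had 99.2 and 79.3 RPKM against 94.1 and 73.7, also overlapping and not called (0.09 ± 0.08). Eya1 (22.3 to 39.9 RPKM), Sall1 (20.6 to 28.4), Osr1 (21.3 to 35.4), Gdnf (56.4 to 73.8) and Wt1 (61.5 to 97.4) were present in all 4 libraries. These progenitor markers go with the label of the cells, but not all did: Meox1 (1.75 to 2.25) was low, as was Pax2, described above. Wnt4, the signal that starts nephron formation, had 1.54 and 3.86 RPKM against 0.881 and 2.00 and did not pass (0.56 ± 0.14, adjusted p = 0.0838). Lef1, a Wnt effector and target, stayed under 1 RPKM in all 4 libraries and was not tested. None of 11 early nephron differentiation genes was called.

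The lists closest to the withdrawn agents are read against the 2.59% of all genes called in either direction; heparin-binding factors had 4 of 18 members called, and the ROCK list none of 34. Of 20 FGF and ERK feedback and target genes, only Egr1 was called, upward, while 12 members lay below 0 on both days and 1 above. The feedback genes had larger negative differences on day 4 than on day 8: Spry4 had a difference of -0.60 on day 4 and -0.02 on day 8, Dusp6 of -0.61 and -0.15, and Dusp4 of -0.85 and -0.07. None of these passed (adjusted p = 0.273, 0.129 and 0.179). Etv4 (-0.28) and Etv5 (-0.04), transcription factor genes induced by FGF, did not pass. The list's median was -0.26 on day 4 and -0.03 on day 8. Of 13 FGF ligands and receptors, Fgfr2, a receptor gene, was called higher (0.47 ± 0.09). Of 25 heparan sulfate proteoglycan genes and their enzymes, Hs2st1, which encodes a heparan sulfate sulfotransferase, was called higher (0.45 ± 0.09) and Col18a1 lower. Among 18 heparin-binding growth factor genes, Igfbp5 and Cxcl12 were called higher, and Areg and Tgfb1 lower. Igfbp5, which encodes a binding protein of insulin-like growth factors, had 73.9 and 82.3 RPKM in heparin withdrawal and 38.4 and 31.8 in Y27632 withdrawal, without overlap (1.13 ± 0.11, adjusted p = 0.00651).

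On the side of the ROCK inhibitor, none of 34 ROCK pathway genes was called. Rock1 overlapped between the conditions (2.45 and 3.46 RPKM in heparin withdrawal, 3.04 and 2.93 in Y27632 withdrawal). Rock2 did not overlap (5.86 and 7.43 against 8.30 and 8.08), but its difference did not pass either (-0.44 on day 4 and -0.11 on day 8). The list's median was -0.05. Of 30 actin and SRF target genes, Tagln2 (-0.78 ± 0.08) and Actn4 (-0.39 ± 0.08), which encode proteins that bind actin filaments, were called lower without heparin. Tagln2 had 69.3 and 74.1 RPKM against 117.1 and 131.2, with no overlap. None of 20 YAP and TEAD target genes was called, among them Ctgf (-0.84) and Cyr61 (-0.32), both of which differed more on day 4 (-1.41 and -0.54) than on day 8 (-0.28 and -0.09).

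**Figure D4:**
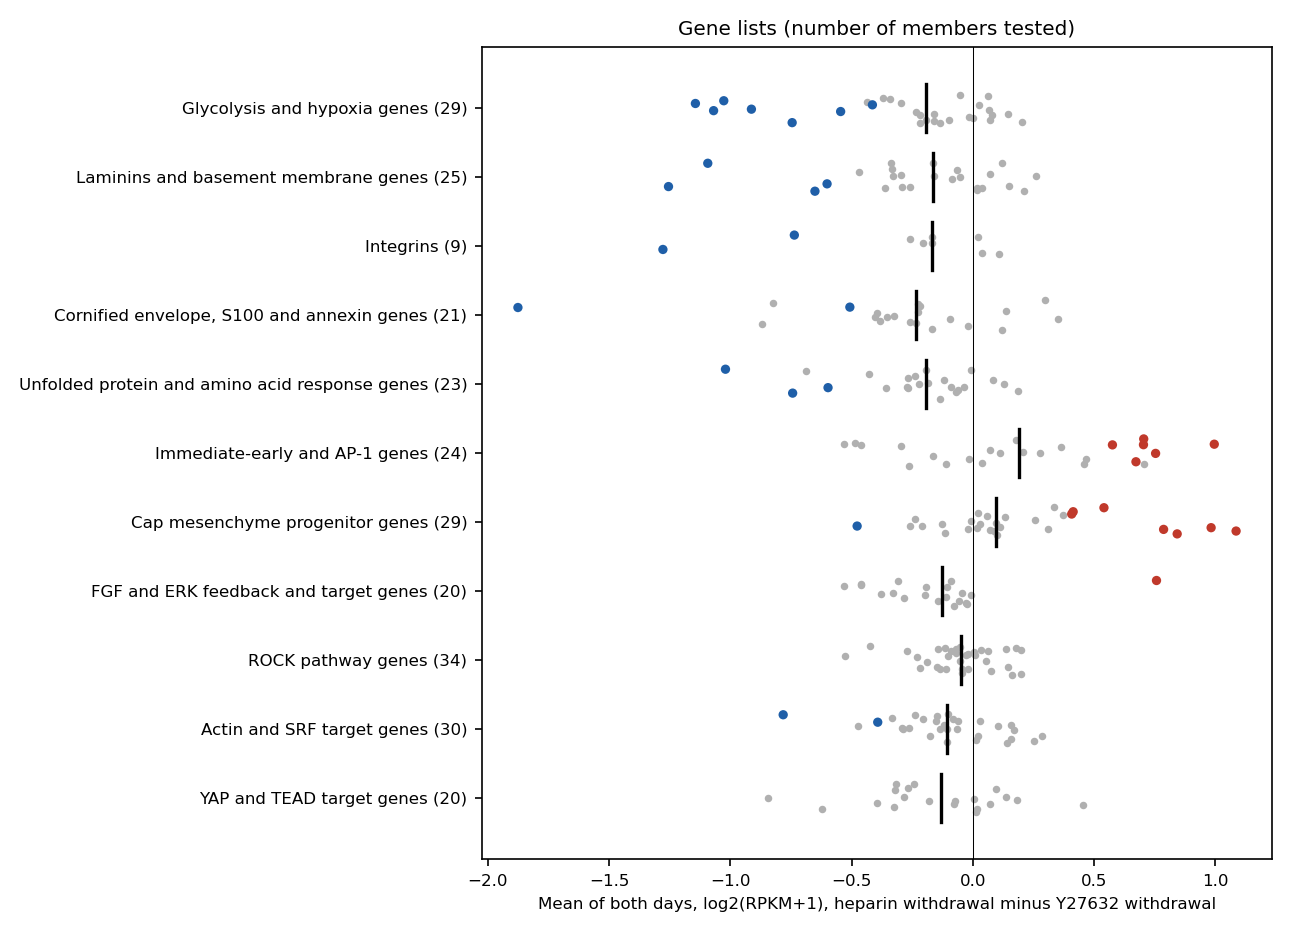
Mean difference of log2(RPKM + 1) over both days, heparin withdrawal minus Y27632 withdrawal, for the members of 11 gene lists, each point 1 gene, with the number of members tested in brackets; grey points were not called, red and blue points were called higher and lower without heparin, and the black bar is the list's median. The median of the immediate-early list lies at 0.19, that of the glycolysis and hypoxia list at -0.19 and that of the ROCK list at -0.05.

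Lists for growth held no calls, and those for other signals 0 to 2 each, against 2.59% of all genes. None of 26 mitosis genes, 26 DNA replication genes, 12 BMP target genes, 10 interferon response genes or 15 histone genes was called. The BMP targets lay above 0 on both days in 8 of 12 cases and below in none, with a median of 0.14. Of 11 Wnt target and feedback genes, Sfrp1, a secreted Wnt inhibitor, was called higher (0.65). Of 20 LIF and STAT3 target genes, Klf4 and Lbp (0.65) were called higher. Of 15 Notch pathway genes, the ligand gene Jag2 was called lower (-0.95). Of 25 apoptosis regulators, the BCL2 family genes Bmf (0.97) and Bok (-0.52) were called in opposite directions.

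Most defining markers checked for other cells were low, though other members of several of their lists were expressed. The macrophage genes Ptprc and Tyrobp were listed at 0 in all 4 libraries and Csf1r reached at most 0.207 RPKM, whereas Cd68, which is not limited to macrophages, had 11.7 to 15.2 with overlap between the conditions. The endothelial genes Pecam1, Cdh5 and Kdr reached at most 0.256 RPKM, and the podocyte genes Nphs1 and Podxl at most 0.189. The tubule genes Umod and Slc12a1 were listed at 0. An entry of 0 may be a failed estimate, since Hmgcs1, a gene of sterol synthesis in most cells, was also listed at 0. Summed over all members, the endothelial list had 52.7 to 61.2 RPKM in the 4 libraries and the podocyte list 237.1 to 394.8. The ureteric bud list had 101.2 to 119.8, and the tubule list 304.0 to 393.6 with Spp1 as its only tested member. The renal stroma genes Foxd1 and Pdgfra stayed at or under 0.515 RPKM, but Pdgfrb had 16.8 and 14.1 in heparin withdrawal against 26.6 and 19.1 and was called lower (-0.52). The summed RPKM of the stroma list, of which 14 members were tested and 1 was listed at 0 in all 4 libraries, was 1082 and 1013 in heparin withdrawal against 1040 and 858.6. That of the muscle and cardiac list was 589.2 and 541.3 against 638.4 and 577.8, and among its 5 tested members Tnnt2 was called higher (1.01) at no more than 2.55 RPKM. The part of such cells in the differences was not tested.

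The remaining longer genes selected by size were Syt13 and Pisd-ps3 on the higher side and Snhg9, Gpnmb and Defb19 on the lower. Syt13 (mm9 chr2:92755255-92796215, plus strand), which encodes a synaptotagmin of membrane trafficking, had 35.0 and 31.8 RPKM in heparin withdrawal and 13.2 and 13.3 in Y27632 withdrawal. The 2 libraries of each condition were nearly equal, and the difference of 1.27 ± 0.09 passed in both fits (adjusted p = 0.00405 and 0.0407). It was lower again in LIF withdrawal (0.659) and higher in BMP7 withdrawal (77.5 and 52.3). Pisd-ps3, a pseudogene, had 21.5 and 17.8 RPKM against 3.44 and 0.973 (2.80 ± 0.19, called, with an adjusted p of 0.0583 in the fit on all genes), and reads shared with its parent gene make this value uncertain. Snhg9, a host gene of small nucleolar RNA with an annotated exonic length of 183 nucleotides, had 13.2 and 17.0 RPKM against 41.5 and 47.5 and passed in both fits (-1.51 ± 0.09, adjusted p = 0.00302 and 0.0194). Gpnmb, the gene of a transmembrane glycoprotein, had 2.00 and 2.01 RPKM against 7.005 and 6.29 (-1.34 ± 0.11, called, with an adjusted p of 0.0573 in the fit on all genes), and the beta-defensin gene Defb19 had 5.71 and 7.67 against 20.9 and 17.5 (-1.40 ± 0.15, called, with an adjusted p of 0.115 in the fit on all genes).

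The calls were also set against the other libraries. Of the 154 genes called lower, the median of the 5 other withdrawal libraries was nearer to the heparin withdrawal mean for 101 and nearer to the Y27632 withdrawal mean for the rest. The E13.5 line at passage 80 was nearer to the heparin withdrawal mean for 54 of the 154, and at passage 20 for 56. Of the 140 called higher, the other withdrawals were nearer to the heparin withdrawal mean for 68, the line at passage 80 for 41 and at passage 20 for 35. The line was thus nearer to Y27632 withdrawal for the larger share of the called genes in either direction. This is a description without a test, since lines and withdrawals are labelled as different kinds of RNA. The same shares over all tested genes were not counted, so whether this is particular to the called genes is not known.

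Promoter windows were matched in RefSeq (GRCm38.p6, 250 bases before to 50 after the annotated start) for 6 of the 11 longer genes selected by size. Each was searched on both strands for the AP-1 motif TGACTCA, bound by Fos and Jun proteins, and for the TEAD motif CATTCC, among others. Of all 27025 genes with a window, 5.95% have an AP-1 motif and 16.6% a TEAD motif. Of the 8633 tested genes with a window, 4.3% and 14.1% have them. The window of Sprr1a holds the AP-1 motif at positions -146 and -116 (the first base of the match, counted from the start as 0), that of Sprr2k at -196 and -182 with a TEAD motif at -207, and that of Gpnmb at 8 after the start, while that of Rspo1, the higher gene with a window, holds none of the motifs searched. The lower genes Snhg9 and Tinagl1 have no AP-1 motif in their windows. Snhg9 holds the ETS motif CCGGAAG at 23 after the start. The ETS motif is found in 9.93% of all genes with a window and in 21.1% of those tested. Of the 2 windows of Tinagl1 the upstream one holds a TEAD motif at -149 and the other none. All windows matched are shown because they belong to the genes selected by size; motifs are in capitals, on either strand, and the motifs shown do not overlap. A match describes the letters of the window and is no evidence of binding.
Sprr1a, chr3:92485832-92486131, minus strand: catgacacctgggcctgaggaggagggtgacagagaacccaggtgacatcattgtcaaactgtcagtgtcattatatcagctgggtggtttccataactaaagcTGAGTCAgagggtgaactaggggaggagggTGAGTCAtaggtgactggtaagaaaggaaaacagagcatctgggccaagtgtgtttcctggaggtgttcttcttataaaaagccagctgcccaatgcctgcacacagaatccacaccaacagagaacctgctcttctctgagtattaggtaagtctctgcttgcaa
Sprr2k, chr3:92432332-92432631, plus strand: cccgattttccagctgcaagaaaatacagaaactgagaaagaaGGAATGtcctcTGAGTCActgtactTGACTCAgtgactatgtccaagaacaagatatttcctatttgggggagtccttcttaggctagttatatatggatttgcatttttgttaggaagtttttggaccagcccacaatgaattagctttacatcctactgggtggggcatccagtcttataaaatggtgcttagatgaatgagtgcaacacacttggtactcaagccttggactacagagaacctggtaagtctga
Gpnmb, chr6:49036268-49036567, plus strand: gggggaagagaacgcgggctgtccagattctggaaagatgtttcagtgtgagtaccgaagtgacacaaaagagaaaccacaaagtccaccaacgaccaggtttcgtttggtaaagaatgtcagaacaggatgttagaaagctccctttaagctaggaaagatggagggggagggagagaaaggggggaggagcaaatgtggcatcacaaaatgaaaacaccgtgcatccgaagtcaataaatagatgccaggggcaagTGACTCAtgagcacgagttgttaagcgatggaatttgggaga
Snhg9, chr17:24719916-24720215, minus strand: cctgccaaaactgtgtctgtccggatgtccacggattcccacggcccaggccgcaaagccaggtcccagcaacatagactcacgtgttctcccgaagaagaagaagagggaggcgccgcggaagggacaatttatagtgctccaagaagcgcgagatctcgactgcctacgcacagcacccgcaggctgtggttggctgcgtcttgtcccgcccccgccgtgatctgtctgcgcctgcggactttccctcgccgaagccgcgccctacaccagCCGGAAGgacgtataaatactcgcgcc
Tinagl1, chr4:130175073-130175372, minus strand: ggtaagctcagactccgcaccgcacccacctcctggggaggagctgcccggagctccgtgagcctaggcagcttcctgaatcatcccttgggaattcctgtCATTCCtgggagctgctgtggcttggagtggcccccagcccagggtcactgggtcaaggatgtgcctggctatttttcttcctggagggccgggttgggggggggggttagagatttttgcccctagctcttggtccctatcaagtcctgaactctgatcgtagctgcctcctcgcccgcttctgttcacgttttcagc
Tinagl1, chr4:130174753-130175052, minus strand: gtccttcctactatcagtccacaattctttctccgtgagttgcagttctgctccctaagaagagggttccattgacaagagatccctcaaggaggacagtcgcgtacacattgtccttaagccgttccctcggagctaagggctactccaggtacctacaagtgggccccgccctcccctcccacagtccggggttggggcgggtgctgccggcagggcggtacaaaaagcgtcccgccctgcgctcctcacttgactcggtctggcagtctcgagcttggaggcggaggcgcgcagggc
Rspo1, chr4:124986180-124986479, plus strand: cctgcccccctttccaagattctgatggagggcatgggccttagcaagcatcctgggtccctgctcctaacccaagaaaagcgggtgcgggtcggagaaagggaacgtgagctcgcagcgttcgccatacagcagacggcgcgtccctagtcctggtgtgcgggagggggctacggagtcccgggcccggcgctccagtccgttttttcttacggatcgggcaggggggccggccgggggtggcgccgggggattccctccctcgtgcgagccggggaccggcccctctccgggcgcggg

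Genes of short RNAs made up 11 of the 15 calls of the fit on all genes. Some of them may rest on few reads, but the reads behind each were not counted. In each library 87.0 to 90.4% of the 1196 short RNA symbols were listed at 0. Some values that were not at 0 moved in coarse steps: in Y27632 withdrawal, Mir6945 was 2.00 times Snord95 on day 4 and 1.00 times on day 8. Mir29c, the gene of a microRNA that targets collagen mRNAs, had 124.7 and 94.6 RPKM in heparin withdrawal and was listed at 0 in both Y27632 withdrawal libraries. Mir24-2 was the reverse, at or near 0 without heparin (0.0103 and 0) and at 89.2 and 153.4 without Y27632. Mir762 was above 0 in all 4, with 2718 and 1754 RPKM against 811.0 and 455.2, a difference of 1.84 ± 0.09 (adjusted p = 0.0151). These hairpin genes measure 88, 107 and 76 bases, and their RPKM does not tell a mature microRNA from its precursor or from an overlapping transcript. For identity, 1 mature product of each (RefSeq, GRCm38.p6) is shown, with the seed (bases 2 to 8) in capitals. The 5p products of Mir29c and Mir24-2 are not shown. No seed is shared among the products shown.
miR-29c-3p: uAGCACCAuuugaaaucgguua
miR-24-3p: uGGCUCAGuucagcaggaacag
miR-762: gGGGCUGGggccgggacagagc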

How the data were processed

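The series holds 29 libraries; the 9 withdrawal libraries are labelled total RNA and the other 20 poly(A) RNA. RPKM values per gene symbol were deposited by the authors in 1 table. STAR, Cufflinks and mm9 are named for the other 20 libraries, per the submitters' processing notes; for the withdrawal libraries aligner, counting tool and build are not given in the sources that were used. Of 23947 lines, 2 misaligned lines at the end and 27 symbols turned into dates were left out. Depth was estimated from the spacing of low values and exonic lengths (mm9, GENCODE M1); only 43.7 to 61.1% of low values lay within 0.1 read of a whole number, so no count test was run.

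Log2(RPKM + 1) was fitted with limma (version 3.58.1, R 4.3.3; moderated, variance trend, two-sided) on the 4 libraries with day as a term. Genes needed an RPKM of 1 or more in 2 or more libraries, and p-values had Benjamini-Hochberg adjustment. Each gene has 1 residual degree of freedom. Moderation added 3.66 degrees of freedom borrowed from the other genes in the fit on all genes, and 6.52 without short RNA genes. The labels pair the libraries by day, and same-day libraries deviated together from their group means (r = 0.694). An exact permutation test of 2 against 2 libraries cannot go below p = 0.333. Genes were named where the difference was at least 1 on both days, the conditions did not overlap and 1 condition had a mean RPKM of at least 5; predicted genes were passed over, and called list members were added. Some genes that this rule selects are left out of the text. The 40 gene lists and the members were chosen with earlier results of these data known. Lists have no test of their own. Alternatives were other pseudocounts, filters, scalings and models, and leaving out each library. The fit was tested on simulated data with normal noise of the fitted spread and changes only in genes above a mean of about 5 RPKM. Nearly all changes of the sizes simulated were recovered, and the share of false calls was above the nominal level. Such data cannot give the error rate of the real libraries.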

Additional observations from a re-analysis of the deposited data

How the results depend on the processing

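With limma on all genes, the 15 calls became 0 without a filter on low values (1946 genes had an unadjusted p under 0.05), 23 with RPKM of at least 5, 24 with quantile scaling, 9 without the variance trend, 8 with no replicate block, that is without the term that pairs the libraries by day, 4 in the fit on all 9 withdrawal libraries, 4 to 6 on leaving out each library in turn from that 9-library fit, and 294 without short RNA genes. Without short RNA genes, the 294 calls became 83 without the variance trend and 0 without a filter (2235 unadjusted), with no replicate block (548), in the 9-library fit (604) and, from that fit, on leaving out each library (156 to 301); other pseudocounts, filters and scalings gave 216 to 402. Of the 294, 187 (63.6%) had an unadjusted p under 0.05 in the 9-library fit. The 33 genes with a difference of at least 1 on both days became 71 with a pseudocount of 0.1, 16 without short RNA genes and 227 at a difference of at least 0.5. On leaving out each library, Bcam ran from -0.29 (without Y27632 withdrawal day 4) to 0.71 and Cited1 from -0.32 (without heparin withdrawal day 8) and -0.30 (without Y27632 withdrawal day 4) to 0.50, so both turned in sign, and neither was called. Over the named genes, 310 values stayed on the same side of the threshold with the same direction, 21 passed only under the alternative, 95 no longer passed and 3 turned. The causes were not tested. With 1 library per condition and day, the 2 days stand in for replicates, and a difference between the days could not be tested. The shallow heparin withdrawal day 4 library limits genes of low RPKM.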

Other observations

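Of the longer genes, 1 had a difference of at least 1 in opposite directions on the 2 days: Rnaset2b, of a pair of near-identical ribonuclease genes, was lower in heparin withdrawal on day 4 (-1.32) and higher on day 8 (1.14). Smox, the gene of an enzyme that oxidises the polyamine spermine, was named after its values were seen: it had 48.6 and 48.9 RPKM in heparin withdrawal and 105.2 and 91.0 in Y27632 withdrawal, without overlap, and the E13.5 line had 104 at passage 20 and 114 at passage 80. Eya1, a coactivator required for kidney formation, was higher in heparin withdrawal on both days (0.33 and 0.34) but did not pass.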
